A study of Mus musculus with 12 samples.

Results

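The genes described are 10 that relay or restrain signals from Toll-like receptors (TLRs): the adaptors Myd88, Tirap, Ticam1 and Ticam2, the kinases Irak4, Irak1 and Irak2, the inhibitors Irak3 and Sigirr, and the ubiquitin ligase Traf6. Members were found by the RefSeq accession printed for each array probe, which gave 16 probes for the 10 genes, and the brightest probe of each gene was used. All 10 passed the filter on dim probes, among 11108 genes tested in all. No difference between groups was used to choose probes, but brightness was the mean over all 12 arrays, those with LPS included. The filter asked for signal well above background on all 3 arrays of at least 1 group. Ticam2 met it in the 1 h and 6 h groups only.

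The cells were dendritic cells, which present antigen, grown from mouse femur and tibia marrow depleted of B and T cells and kept for 5 days with 10 ng/ml GM-CSF plus 5 ng/ml IL-4. The groups were unstimulated cells (0 h) and cells given lipopolysaccharide (LPS, from the outer membrane of Gram-negative bacteria) at 100 ng/ml for 1, 6 or 24 h, each with 3 arrays lettered as donors A, B and C. Strain, age and sex were not used here, no cell sort before RNA extraction is named, and no letter is stated to be the same animal in every group. The question was which genes respond to LPS. Because the only unstimulated cells are those of 0 h, added time in culture cannot be told apart from LPS, and in such bulk RNA fewer cells of a type and less RNA per cell cannot be told apart.

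Each array compared 750 ng of Cy5-labelled sample with a Cy3-labelled Universal mouse reference, which is a pool of mouse RNA, so every value below is a log2 ratio of sample to reference and every difference is between 2 such ratios of 1 gene. Ratios are not levels that can be compared between genes. Probes well above background in the sample channel made up 48.2 to 57.6% of an array, and the median sample signal was 24 to 44 intensity units above background. The 12 arrays lay on 4 slides. Unstimulated cells shared a slide with the 1 h array of donor A only, so no slide held them with 6 h or 24 h cells. Where slide is held as a block below, all differences from unstimulated cells rest on that 1 array as the link. Of the dendritic cell markers, 7 of 8 were well above background on all 12 arrays, whereas the B cell genes Ms4a1 and Pax5, the T cell gene Cd3d and the NK cell genes Ncr1, Prf1 and Gzma were above background on none. All 7 tested targets used to check the labels, among them Il6 and Isg15, were called higher at 1, 6 and 24 h.

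Toll-like receptors carry a cytoplasmic TIR domain that recruits adaptors with the same kind of domain. MyD88 serves every TLR except TLR3 and also the IL-1 receptor family, and Tirap bridges it to TLR4 and TLR2 at the plasma membrane. TRIF, encoded by Ticam1, serves TLR3 and, through the bridging adaptor TRAM (Ticam2), internalised TLR4, and drives type I interferon. MyD88 assembles with the kinase IRAK4 and then IRAK1 or IRAK2, which engage TRAF6, a ligase that builds the ubiquitin chains needed to activate TAK1. IRAK-M, encoded by Irak3, and the orphan receptor SIGIRR are known as brakes on this chain.

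Promoter windows of 8 of the 10 genes were searched, 3 of them with 2 start sites. This gave 11 windows of 250 bases before and 50 after a RefSeq start (build GRCm38.p6). Sigirr had no window in the reference table, and Ticam2 was left out of the search. The windows of Myd88, Irak2 and Irak3 are shown as examples of genes that rose after LPS and differ in what their promoters hold. Ticam1 and Traf6 also rose, and their windows are not shown. Each stretch shown is the 250 bases before the start, on the strand of the gene. In Myd88 the capitals mark the only match of the 3 motifs searched, and in the others they mark CG dinucleotides.
Myd88, chr9:119340019-119340268, minus strand: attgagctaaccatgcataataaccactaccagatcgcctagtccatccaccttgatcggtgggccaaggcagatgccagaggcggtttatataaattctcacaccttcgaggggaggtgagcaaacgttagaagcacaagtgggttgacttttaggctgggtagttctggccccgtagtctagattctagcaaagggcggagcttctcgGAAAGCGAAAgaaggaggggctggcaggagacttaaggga
Irak2, chr6:113638217-113638466, plus strand: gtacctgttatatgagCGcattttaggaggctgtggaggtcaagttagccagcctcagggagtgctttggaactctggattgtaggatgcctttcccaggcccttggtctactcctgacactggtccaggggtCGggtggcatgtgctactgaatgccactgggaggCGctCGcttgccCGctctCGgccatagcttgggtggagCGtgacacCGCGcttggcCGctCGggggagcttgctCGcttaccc
Irak3 start site 1, chr10:120201598-120201847, minus strand: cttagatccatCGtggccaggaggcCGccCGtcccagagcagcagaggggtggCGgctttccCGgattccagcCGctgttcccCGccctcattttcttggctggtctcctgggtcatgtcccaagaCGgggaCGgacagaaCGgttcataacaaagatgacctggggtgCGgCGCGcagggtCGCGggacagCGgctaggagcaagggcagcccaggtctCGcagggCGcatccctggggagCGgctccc
Irak3 start site 2, chr10:120202131-120202380, minus strand: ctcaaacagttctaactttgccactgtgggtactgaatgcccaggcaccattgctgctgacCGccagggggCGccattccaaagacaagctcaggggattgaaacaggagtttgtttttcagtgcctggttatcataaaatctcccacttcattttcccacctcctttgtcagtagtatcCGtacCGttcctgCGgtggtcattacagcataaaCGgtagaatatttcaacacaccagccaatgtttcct

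The motifs searched on both strands were the kappa B consensus bound by NF-kB, the core of the interferon-stimulated response element (GAAA, any 2 bases, GAAA), and the AP-1 site TGANTCA. Over all 32851 windows of the table, 4.51% held the first, 3.44% the second and 7.81% the third. Among the 11 windows of these genes the only match was GAAAGCGAAA in Myd88, from 40 to 31 bases before the start on the gene's strand, in the context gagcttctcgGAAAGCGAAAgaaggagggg. A match of letters is not a bound site, and a window without a match says nothing about a factor. The stretch before the start held 9 CG dinucleotides in Myd88, 12 in Irak2, 19 at the first start of Irak3 and 6 at the second, against a median of 6 over all windows.

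After LPS the 10 genes did not share 1 direction or 1 timing. Irak2 was higher at each time, Myd88 at 6 h alone, Irak3 at 6 and 24 h, and Ticam1 and Traf6 at 24 h, while Sigirr was lower at 6 and 24 h. Tirap, Ticam2, Irak4 and Irak1 were called in no comparison. In the moderated F test of limma for any difference between the 4 groups, 6 of the 10 genes were called, where 51.7% of all genes were called. A gene is called here when its p, adjusted over all genes by the Benjamini-Hochberg method, is below 0.05.

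At 1 h against unstimulated cells 1 of the 10 genes was called, with 7.45% of all genes called (4.06% higher and 3.39% lower). At 6 h it was 4 genes, 3 higher and 1 lower, against 39.6% of all genes (16.1% higher and 23.5% lower). At 24 h it was 5 genes, 4 higher and 1 lower, against 39.3% of all genes (17.9% higher and 21.4% lower). Each of these shares of members lies near that of all genes, so the counts do not set these genes apart in any of these 3 comparisons. The median difference of the 10 genes was 0.07 at 1 h, 0.19 at 6 h and 0.08 at 24 h, beside 0.02, -0.04 and 0.02 over all genes. With slide held as a block the medians of the 10 genes were 0.16, 0.36 and 0.17, beside 0.01, -0.02 and 0.00 over all genes. The split of all calls depends on the normalisation: higher calls were 54.5, 40.6 and 45.6% at 1, 6 and 24 h with loess, and 79.6, 67.4 and 35.7% with median centring, which put the median of all genes at -0.12, 0.05 and -0.11.

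**Figure D1:**
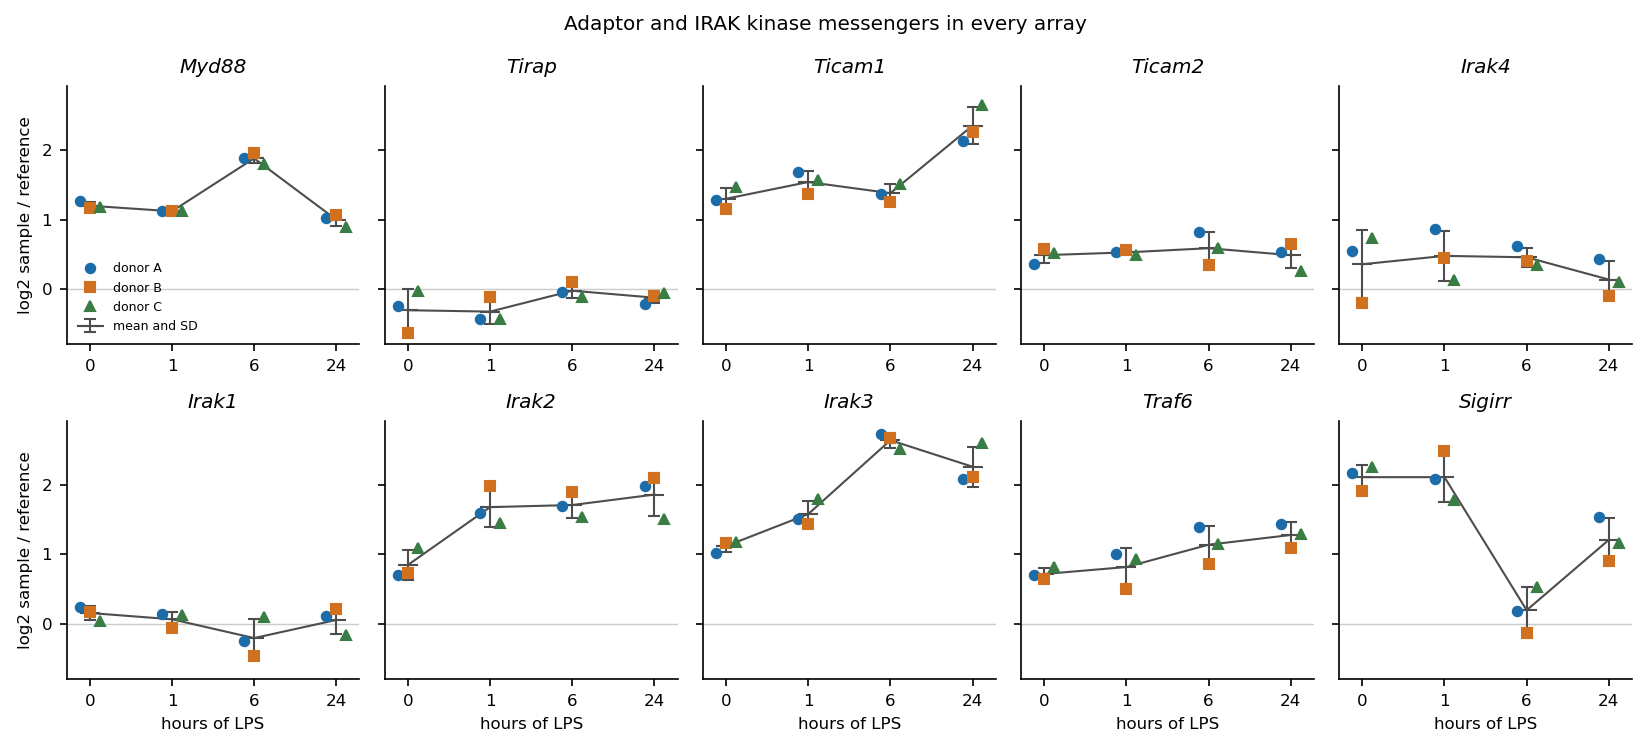
Log2 ratio of sample to reference (y axis) for each of the 10 genes on all 12 arrays, by hours of LPS (x axis); each point is 1 array, the line joins the group means and the bars are the SD of 3 arrays. Sigirr falls from a mean of 2.11 without LPS to 0.20 at 6 h, Irak3 climbs from 1.12 to 2.64, and Myd88 is high at 6 h alone.

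The adaptor shared by nearly all TLRs, Myd88, rose at 6 h and had fallen again at 24 h. Its log2 ratios were 1.27, 1.17 and 1.18 in unstimulated cells of donors A, B and C, 1.13, 1.12 and 1.12 at 1 h, 1.89, 1.95 and 1.80 at 6 h, and 1.02, 1.07 and 0.90 at 24 h. The 3 arrays of 6 h were above the other 9, with no overlap. The mean was 1.88 ± 0.07 (SD, n = 3) at 6 h and 1.20 ± 0.06 in unstimulated cells, a 1.6-fold difference of 0.68 (SE 0.10, 95% confidence interval 0.46 to 0.89, limma adjusted p = 1.9e-04). It then fell by 0.88 from 6 h to 24 h, or 1.84-fold (adjusted p = 1.4e-04). The difference from unstimulated cells was -0.08 at 1 h (adjusted p = 0.664) and -0.21 at 24 h (interval -0.42 to 0.01, adjusted p = 0.121), although the 24 h arrays were all below the unstimulated ones. With the Cy5 channel alone the 24 h difference was -0.40 and called (adjusted p = 0.036).

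Myd88 is printed 10 times on each array, so its value carries an internal check that the other genes lack. The SD over its 10 spots was 0.03 to 0.05 on every array, smaller than the 6 h difference. The lowest spot of any 6 h array was at 1.77, above the highest unstimulated spot at 1.33. These spots share 1 labelled sample and are not replicates of the condition. In the alternatives run, the 6 h difference of Myd88 stayed called in all 22, between 0.55 and 0.85. Some of these could not change its ratios. Myd88 has 1 probe, so the mean over probes repeats it, and the filters on dim probes act on other genes only. Within slide 3 the 6 h arrays of Myd88 were 0.80 above the 1 h array.

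**Figure D2:**
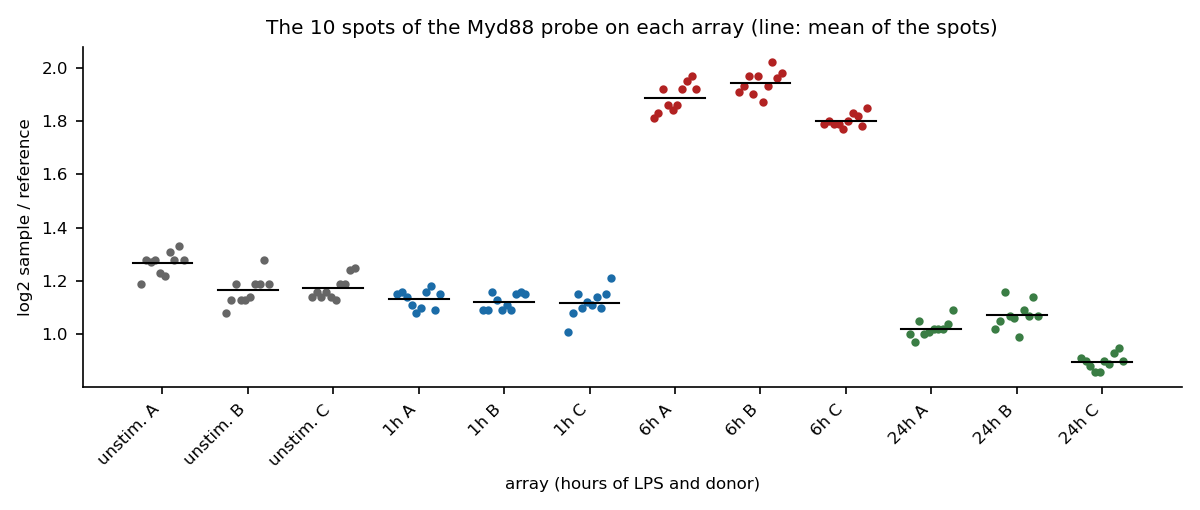
Log2 ratio (y axis) of each of the 10 spots of the Myd88 probe on each of the 12 arrays (x axis). The spots of the 6 h arrays lie between 1.77 and 2.02, above all spots of the other arrays.

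Tirap, the adaptor that brings MyD88 to TLR4, changed by less than the spread between arrays. Its ratios were -0.24, -0.62 and -0.03 in unstimulated cells, -0.42, -0.11 and -0.43 at 1 h, -0.04, 0.10 and -0.11 at 6 h, and -0.21, -0.10 and -0.06 at 24 h. The groups overlap throughout. The 6 h difference was 0.28, with an interval of -0.05 to 0.61 (adjusted p = 0.169), which leaves room for changes up to that size.

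In the TRIF branch, Ticam1 rose late. Its ratios were 1.28, 1.15 and 1.47 in unstimulated cells, 1.69, 1.37 and 1.57 at 1 h, 1.37, 1.25 and 1.51 at 6 h, and 2.13, 2.26 and 2.65 at 24 h. Every 24 h array was above the 9 others, while the 3 earlier groups overlap. The mean was 2.35 ± 0.27 (SD, n = 3) at 24 h against 1.30 ± 0.16 in unstimulated cells, a difference of 1.05 (SE 0.15, 2.07-fold, adjusted p = 1.8e-04). From 6 h to 24 h the rise was 0.97 (adjusted p = 0.0011), and it was 0.88 between arrays of these times on slide 4. At 1 h and 6 h the differences were 0.24 (adjusted p = 0.354) and 0.08 (adjusted p = 0.723). A second Ticam1 probe gave 1.00 at 24 h (adjusted p = 1.8e-04 over all probes) and followed the first at r = 0.99 over the 12 arrays. With median centring in place of loess the 24 h difference was 0.91 and missed the threshold (adjusted p = 0.066), as did those from 6 h (0.74, adjusted p = 0.204) and 1 h (0.86, adjusted p = 0.125) to 24 h.

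Ticam2, which links TRIF to TLR4, showed no difference beyond its spread. Its ratios ran from 0.37 to 0.58 in unstimulated cells, 0.49 to 0.57 at 1 h, 0.35 to 0.82 at 6 h and 0.27 to 0.65 at 24 h, and these ranges overlap. The probe was dim, well above background on 10 of 12 arrays. Differences from unstimulated cells were 0.04, 0.09 and -0.01 at 1, 6 and 24 h, with intervals that lie between -0.30 and 0.39.

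Among the kinases that carry the signal, Irak4, which starts the cascade, had the widest scatter. Its ratios were 0.55, -0.19 and 0.73 in unstimulated cells, 0.86, 0.45 and 0.14 at 1 h, 0.62, 0.41 and 0.35 at 6 h, and 0.43, -0.10 and 0.10 at 24 h. The unstimulated arrays alone span almost the whole range. Differences from them were 0.12, 0.10 and -0.22 (SE 0.24), and a second probe gave 0.16, 0.13 and 0.23 (SE 0.16). The 2 Irak4 probes were unrelated over the 12 arrays (r = -0.08), and their 24 h differences have opposite signs.

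Irak1, a kinase that IRAK4 phosphorylates, had ratios of 0.25, 0.18 and 0.05 in unstimulated cells, 0.14, -0.06 and 0.13 at 1 h, -0.24, -0.45 and 0.10 at 6 h, and 0.12, 0.22 and -0.16 at 24 h. At 6 h donors A and B gave the lowest arrays of all, but donor C lay among the unstimulated ones. The 6 h difference was -0.36 (interval -0.69 to -0.04, adjusted p = 0.075) and missed the threshold. It was -0.51 and called without the 6 h array of donor C (adjusted p = 0.016). With the Cy5 channel alone it was -0.45 (adjusted p = 0.029). The other 2 probes of Irak1 gave -0.23 and 0.05 at 6 h.

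Irak2, the kinase that takes over from IRAK1 in sustained signalling, was the only gene of the 10 called at 1 h, and it stayed at its raised ratio. Its ratios were 0.71, 0.73 and 1.10 in unstimulated cells, 1.60, 1.99 and 1.45 at 1 h, 1.70, 1.90 and 1.54 at 6 h, and 1.98, 2.10 and 1.51 at 24 h. All 9 arrays with LPS were above all 3 without, and the 3 LPS groups overlap. The mean rose from 0.85 ± 0.22 (SD, n = 3) to 1.68 ± 0.28 at 1 h, a difference of 0.83 (SE 0.19, 1.78-fold, adjusted p = 0.019). At 6 h the difference was 0.86 (1.82-fold, adjusted p = 0.0028) and at 24 h 1.01 (2.02-fold, adjusted p = 0.001). From 1 h to 24 h Irak2 differed by 0.18 (interval -0.22 to 0.59, adjusted p = 0.519).

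Irak2 lost its calls with slide as a block, though the sizes of its differences changed little. That block leaves 5 residual degrees of freedom in place of 8, and fewer of all genes were called under it as well. Myd88, Irak3 and Sigirr kept their 6 h calls under the same block. Why Irak2 lost its calls was not tested. With slide as a block the differences were 0.75, 0.97 and 1.04 at 1, 6 and 24 h, and none was called (adjusted p = 0.159, 0.055 and 0.051). The 1 h value of 0.75 is the 1 h array of donor A against the unstimulated arrays within slide 1. That array is the only link of unstimulated cells to the other slides. The 1 h call was also lost without unstimulated A (0.76, adjusted p = 0.097), without unstimulated B (0.77, adjusted p = 0.089) and without 1 h B (0.67, adjusted p = 0.081). Median centring gave 0.70 at 1 h (adjusted p = 0.110), and backgrounds as deposited 0.80 (adjusted p = 0.136). With backgrounds as deposited the 6 h difference of Irak2 was 0.51 and not called (adjusted p = 0.170). In that form the 6 h array of donor B gave Irak2 a ratio of 0.88 in place of 1.90.

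Traf6, the ligase below the IRAK kinases, was called higher at 24 h, with the smallest difference among the called genes at that time. Its ratios were 0.71, 0.65 and 0.82 in unstimulated cells, 1.00, 0.51 and 0.94 at 1 h, 1.40, 0.86 and 1.15 at 6 h, and 1.44, 1.09 and 1.30 at 24 h. The 6 h and 24 h arrays were all above the unstimulated ones, and in each LPS group donor B was the lowest. The 24 h difference was 0.55 (SE 0.17, interval 0.19 to 0.91, 1.47-fold, adjusted p = 0.018) and the 6 h difference 0.41 (adjusted p = 0.065). With donor letter as a block the 6 h difference of Traf6 was also called (adjusted p = 0.015), as was that from 1 h to 24 h (0.46, adjusted p = 0.012, against 0.054 without the block). The 24 h call was lost with slide as a block (0.79, adjusted p = 0.082). It was also lost without unstimulated A (0.55, adjusted p = 0.051), without unstimulated B (0.51, adjusted p = 0.063) and without 24 h A (0.47, adjusted p = 0.064). Median centring gave Traf6 0.45 at 24 h (adjusted p = 0.341), and with backgrounds as deposited its 24 h difference was not called either.

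**Figure D3:**
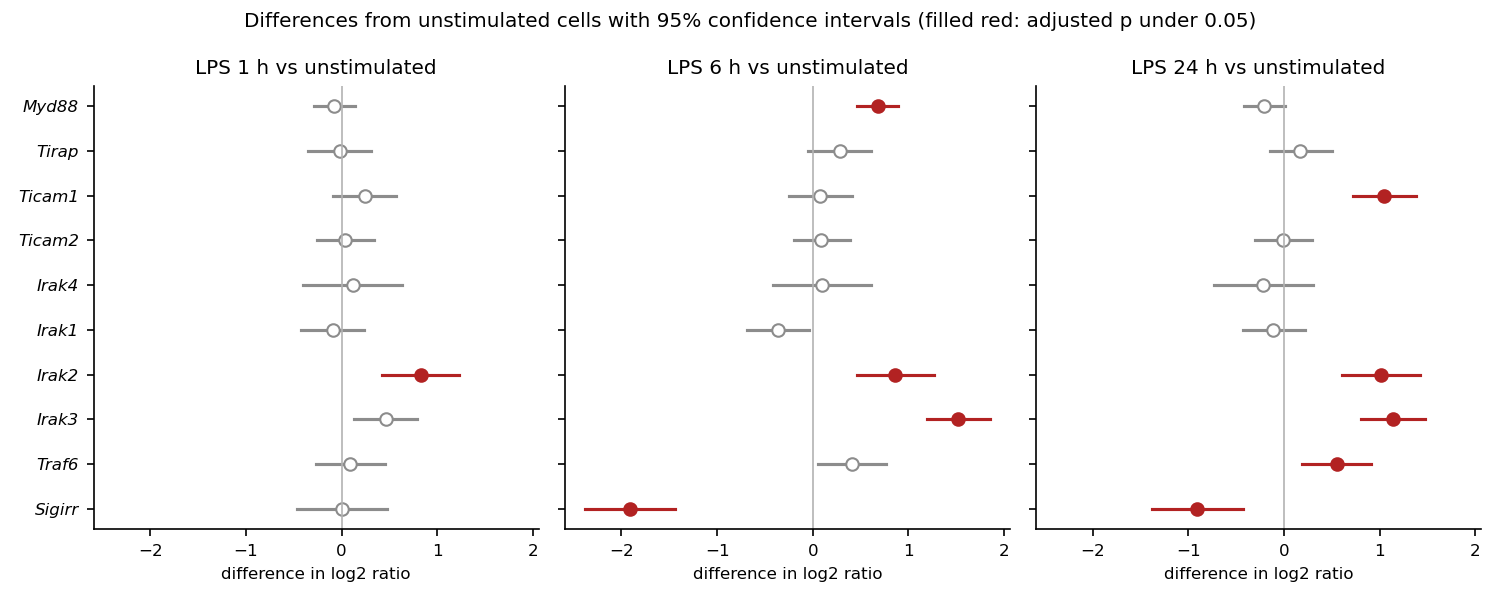
Difference in log2 ratio from unstimulated cells (x axis) with its 95% confidence interval for each of the 10 genes (y axis) at 1, 6 and 24 h of LPS. Irak2 is to the right of 0 at each time, Sigirr lies at -1.91 at 6 h, and the intervals of Tirap, Ticam2 and Irak4 hold 0 in all panels.

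The 2 inhibitors went opposite ways. Irak3, which encodes the kinase-dead IRAK-M that blocks the release of IRAK1 from the receptor complex, had the largest rise of the 10 genes by the probes used, though not by the mean over its probes. Its ratios were 1.02, 1.17 and 1.18 in unstimulated cells, 1.51, 1.44 and 1.79 at 1 h, 2.73, 2.67 and 2.52 at 6 h, and 2.08, 2.11 and 2.60 at 24 h. Each LPS group was wholly above the unstimulated arrays. The mean rose from 1.12 ± 0.09 (SD, n = 3) to 2.64 ± 0.11 at 6 h, a difference of 1.52 (SE 0.15, 2.87-fold, adjusted p = 9.6e-06), and was still 1.14 above at 24 h (2.21-fold, adjusted p = 9.8e-05). The 1 h difference of 0.46 missed the threshold (adjusted p = 0.085) and was called without the 24 h array of donor C (adjusted p = 0.041). From 1 h to 6 h Irak3 rose by 1.06 (adjusted p = 2.5e-04). The step from 6 h to 24 h was -0.38 (adjusted p = 0.106), and -0.55 and called without the 24 h array of donor C (adjusted p = 0.023).

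The size of the Irak3 rise depended on the probe. The 2 dimmer probes of the gene gave 0.52 (adjusted p = 0.032 over all probes) and 0.35 (adjusted p = 0.062) at 6 h, and 0.34 (adjusted p = 0.152) and 0.26 (adjusted p = 0.160) at 24 h. On the dimmest probe the 6 h array of donor B, at 0.24, overlapped the unstimulated arrays. Their ratios followed those of the bright probe at r = 0.76 and 0.71 over the 12 arrays. The mean over the 3 probes rose by 0.80 at 6 h (adjusted p = 3.0e-04) and 0.58 at 24 h (adjusted p = 0.0025).

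**Figure D4:**
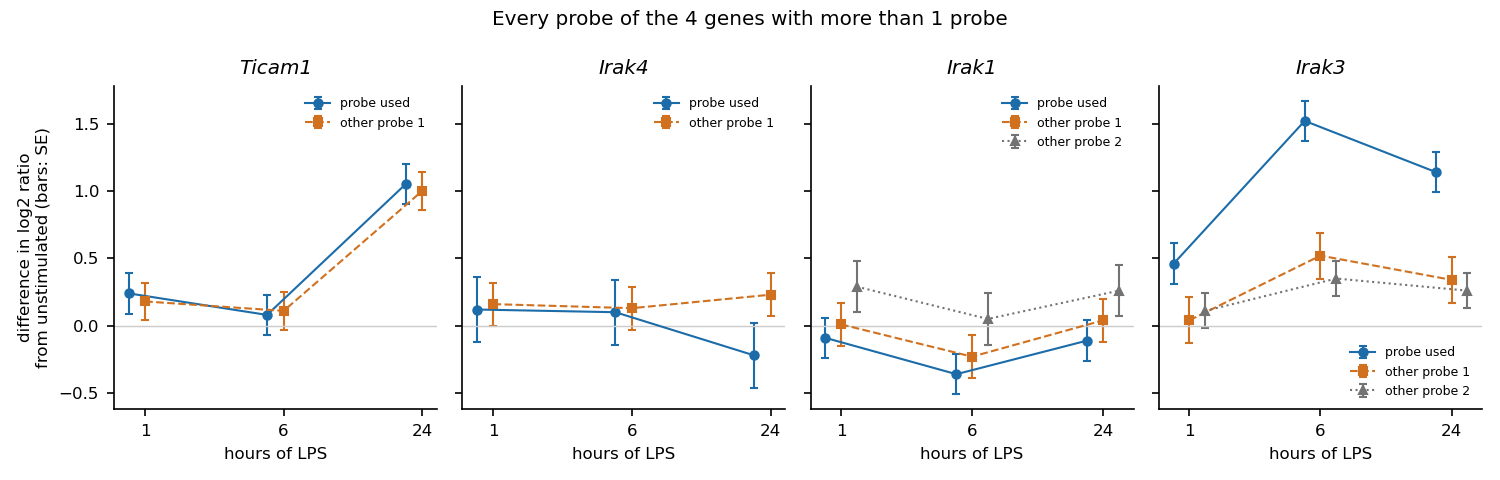
Difference in log2 ratio from unstimulated cells (y axis, bars are the standard error) at 1, 6 and 24 h of LPS (x axis) for every probe of Ticam1, Irak4, Irak1 and Irak3. The 2 Ticam1 probes lie together at 1.05 and 1.00 at 24 h, whereas those of Irak3 lie at 1.52, 0.52 and 0.35 at 6 h.

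The Irak3 calls also depended on the form of background correction, and its ratio moved most on 1 array. When the local background of every spot was used as deposited, the 6 h array of donor B gave Irak3 a ratio of 0.54 in place of 2.67. The 1 h array of donor C gave 1.54 in place of 1.79, and the 6 h array of donor A 2.59 in place of 2.73. The 6 h difference was 0.76 and not called (adjusted p = 0.244). The 24 h difference was then 1.14 (adjusted p = 0.069), that from 1 h to 6 h 0.39 (adjusted p = 0.621) and that from 1 h to 24 h 0.77 (adjusted p = 0.267). On the 6 h array of donor B the Cy5 background of the Irak3 spot itself was 89 intensity units in both forms. Elsewhere on that array spot minus local background reached -50238 units, a value that enters the correction of all spots. Other genes moved on that array too, down for Irak2 (0.88 in place of 1.90), Ticam1 (0.50 in place of 1.25) and Traf6 (0.14 in place of 0.86). Irak1 (-0.32 in place of -0.45) and Sigirr (0.01 in place of -0.13) moved up. The correlation of that array with the authors' deposited values was 0.8262 in this form and 0.9996 in the form used. With median centring the step of Irak3 from 1 h to 24 h was 0.69 (adjusted p = 0.121). In the form used, all 4 calls of Irak3 were kept without the 6 h array of donor B (adjusted p = 8.5e-05 at 6 h).

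Sigirr, an IL-1 receptor family member that dampens TLR4 and IL-1 signalling, had the largest change of the 10 genes. Its ratios were 2.17, 1.91 and 2.25 in unstimulated cells, 2.08, 2.49 and 1.78 at 1 h, 0.19, -0.13 and 0.54 at 6 h, and 1.54, 0.91 and 1.16 at 24 h. The first 2 groups overlap, and the 6 h arrays are below the 24 h arrays, which are below both earlier groups. The mean of 2.11 ± 0.18 (SD, n = 3) in unstimulated cells stood at 2.11 ± 0.36 at 1 h, a difference of 0.00 with an interval of -0.47 to 0.47. At 6 h it was 0.20 ± 0.33, and Sigirr had fallen by 1.91 (SE 0.22, interval -2.38 to -1.44, adjusted p = 2.8e-05), which is 3.76-fold lower. From 6 h to 24 h it rose by 1.01 (adjusted p = 0.0076), and at 24 h it was 1.87-fold below unstimulated cells (difference -0.91, adjusted p = 0.0053). The range of its group means was larger than that of 95.2% of all genes, and that of Irak3 larger than 91.8%.

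The 6 h fall of Sigirr was called in all 22 alternatives, between -2.08 and -1.75, and the 24 h fall in all 22, between -1.35 and -0.76. Some of these could not change its ratios. Sigirr has 1 probe, so the mean over probes repeats it, and the filters on dim probes act on other genes only. That probe is printed as 1 spot per array, so no second probe or spot checks the size of the fall. Same-letter differences at 6 h were -1.98, -2.04 and -1.71 for donors A, B and C. Within slide 3 the 6 h arrays differed from the 1 h array by -1.74. Within slide 4 the 24 h arrays were 0.81 above the 6 h array, and with slide as a block this rise was 0.62 and not called (adjusted p = 0.097). With median centring the rise was 0.77 (adjusted p = 0.202), and the fall from 1 h to 24 h was not called (adjusted p = 0.089).

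Neutrophil genes fell in the same samples. Of the 7 listed, 6 were on the array, 4 were well above background on all 12 arrays and Elane on none. Their summed sample signal was 48700 to 73300 intensity units in unstimulated cells, 8720 to 22500 at 1 h, 4840 to 14500 at 6 h and 1400 to 14000 at 24 h. Of the 5 tested neutrophil genes, 3 were called lower at 1 h and all 5 at 6 and 24 h. Their part in the Sigirr fall, or in the rises of the other genes, was not tested. The summed signal of the dendritic cell markers was 137000 to 163000 without LPS, 139000 to 206000 at 1 h, 136000 to 297000 at 6 h and 169000 to 187000 at 24 h, with 1, 3 and 3 of the 8 called higher at 1, 6 and 24 h. The plasmacytoid dendritic cell list went from 10700 to 12400 without LPS to 49500 to 68100 at 6 h and 45600 to 61000 at 24 h, with 2 and 1 of 3 tested genes higher and its marker Siglech above background on no array. The genes of this list did not move together. From unstimulated cells to 6 and 24 h, mean log2 ratios were -0.35, 2.09 and 2.52 for Bst2, and 0.10, 0.80 and -0.45 for Tcf4. For Ccr9 they were -0.76, -0.43 and -0.60. Of the mast cell genes 2 of 4 tested were lower at 6 and at 24 h. Of the macrophage genes 1 of 4 was higher and 1 lower at 6 h, and 1 higher and 2 lower at 24 h. Beside these counts, 4.06, 16.1 and 17.9% of all genes were higher and 3.39, 23.5 and 21.4% lower at 1, 6 and 24 h. The part of these lists in the results was not tested.

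The comparisons between LPS times share arrays with those above. From 1 h to 6 h Myd88 and Irak3 were called higher and Sigirr lower, 3 of 10 genes against 28.1% of all genes (12% higher and 16.1% lower). From 6 h to 24 h Ticam1 and Sigirr were higher and Myd88 lower, 3 of 10 against 18.4% (9.64% higher and 8.73% lower). From 1 h to 24 h Ticam1 and Irak3 were higher (0.81 and 0.68, adjusted p = 0.0019 and 0.0051) and Sigirr lower (-0.91, adjusted p = 0.0077), 3 of 10 against 28.8% (13% higher and 15.8% lower). Groups did not overlap for 3, 5 and 6 of the 10 genes at 1, 6 and 24 h against unstimulated cells, where 30.7, 54 and 52.3% of all genes were apart. Between LPS times they were apart for 3 genes from 1 h to 6 h, 3 from 6 h to 24 h and 5 from 1 h to 24 h, against 40.8, 35 and 39% of all genes. With a 2-fold difference asked for as well, 0, 2 and 3 of the 10 genes were called at 1, 6 and 24 h, against 2.51, 11.8 and 12% of all genes. Between LPS times it was 2 genes from 1 h to 6 h, 1 from 6 h to 24 h and 0 from 1 h to 24 h, against 7.47, 3.83 and 7.7%.

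**Figure D5:**
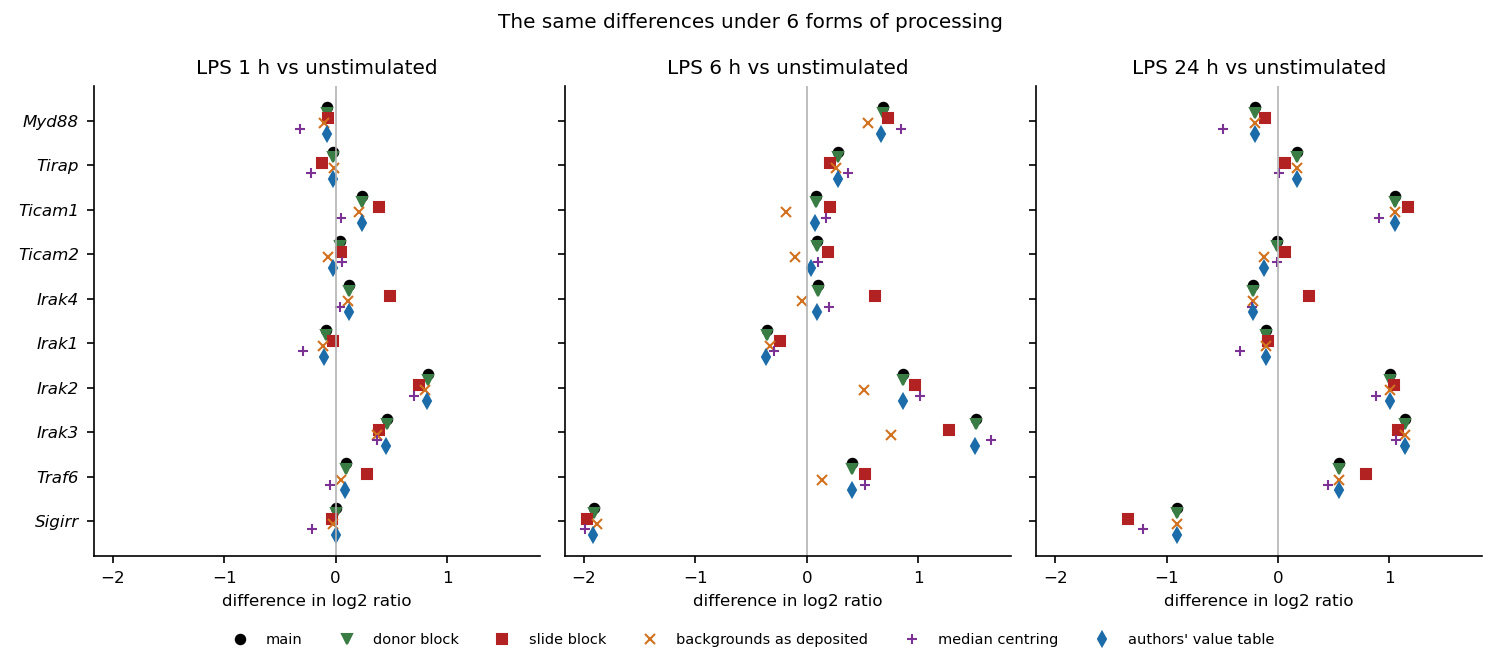
Difference in log2 ratio from unstimulated cells (x axis) for each of the 10 genes (y axis) at 1, 6 and 24 h, computed in 6 ways: as reported, with donor or slide as a block, with backgrounds as deposited, with median centring, and from the authors' deposited value table. The points of Sigirr at 6 h lie together near -1.91, while Irak3 at 6 h runs down to 0.76 with backgrounds as deposited.

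Among pairs of members the correlation over the 12 arrays was lowest between Irak3 and Sigirr (r = -0.90) and highest between Irak3 and Traf6 (r = 0.72). The arrays share groups and slides, so these values describe the time course and carry no test. Of 11084 genes compared over the same arrays, the pair most like Myd88 were Atm (r = 0.980), a DNA damage kinase, and Macir (r = 0.967). Those nearest to Irak3 were Rnf214 (0.980) and the antiviral gene Rsad2 (0.973), and to Sigirr Fam50a (0.985) and the glucose-6-phosphatase gene G6pc3 (0.984). For Ticam1 they were Limk2 (0.953) and Il4ra (0.944), and for Traf6 the intermediate filament gene Vim (0.965) and Men1 (0.933).

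Upstream of the adaptors, TLR and co-receptor genes were mostly higher at 6 h. Of 17 listed, 11 were tested, and 3 were called higher at 1 h, 7 at 6 h and 5 at 24 h, with 1 lower at 24 h. The shares of all genes at these times were 4.06, 16.1 and 17.9% higher and 3.39, 23.5 and 21.4% lower. With slide as a block the counts higher in the list were 2, 6 and 3. Cd14, which hands LPS to TLR4, was 4.54 higher at 24 h (SE 0.30), the RNA sensor Tlr7 2.25 higher at 6 h and the TLR2 partner Tlr1 2.16 higher at 6 h. The median differences of the list were 0.34, 1.19 and 0.28, beside 0.02, -0.04 and 0.02 over all genes.

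Among IL-1 family receptors, most of which use the same adaptors, 1 of 6 tested was called higher and 3 lower at 6 h, and 3 were lower at 24 h. Over all genes 23.5 and 21.4% were lower at 6 and 24 h. With slide as a block 1 was lower at each of those times. The decoy receptor Il1r2, which lacks a TIR domain, fell by 2.15 at 24 h (SE 0.41, adjusted p = 0.0013). Under the slide block its difference was -1.94 and not called (adjusted p = 0.139). The IL-18 receptor gene Il18r1 was at least 2.07-fold lower at 6 h, where it was above background on 0 of 3 arrays. That bound uses the sample channel alone, with the lowest signal called above background standing for the dim group, and is open to dye bias. Il18rap, the partner chain of Il18r1, had a difference of -0.63 at 24 h (adjusted p = 0.0022), where 1 of 3 arrays was above background, and -0.45 under the slide block (adjusted p = 0.218).

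Of 18 tested partners of the IRAK kinases and TRAF6, 4, 7 and 8 were called higher at 1, 6 and 24 h, and 0, 2 and 2 lower. Over all genes 4.06, 16.1 and 17.9% were higher and 3.39, 23.5 and 21.4% lower. Under the slide block 1, 6 and 4 of the partners were higher and 0, 1 and 2 lower. Peli1, a ubiquitin ligase that acts on IRAK proteins, was 2.28 higher at 6 h (SE 0.14), the scaffold Sqstm1 2.06 higher at 24 h and Traf1 2.02 higher at 24 h. The median of these partners was 0.07, 0.21 and 0.34.

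Of 17 downstream kinases, 2, 6 and 3 were higher and 1, 4 and 2 lower at 1, 6 and 24 h. Under the slide block 1, 5 and 3 were higher and 0, 1 and 1 lower, and over all genes 4.06, 16.1 and 17.9% were higher and 3.39, 23.5 and 21.4% lower. Medians of the kinases were 0.02, 0.00 and 0.08. Ikbke, which phosphorylates IRF3, was 2.07 higher at 6 h (SE 0.19). The p38 gene Mapk14 fell by 1.42 at 6 h (SE 0.16), and Map3k8, the kinase upstream of ERK, was 1.18 higher at 1 h (SE 0.19). With backgrounds as deposited Map3k8 was at 1.06 and not called (adjusted p = 0.131).

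Of 9 downstream transcription factors, 1 was called higher at 1 h and 7 at each later time. Over all genes 4.06, 16.1 and 17.9% were higher, and under the slide block 0, 7 and 6 of these factors were. The medians were 0.44, 1.18 and 1.12. Irf7, which drives interferon genes, was 4.01 higher at 24 h (SE 0.24), Irf1 2.22 higher at 6 h and the NF-kB subunit Nfkb2 1.65 higher at 6 h.

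Of 20 other inhibitors of TLR signalling, 7, 12 and 11 were higher at 1, 6 and 24 h and 1, 2 and 2 lower. The medians were 0.30, 0.56 and 0.70, and under the slide block 5, 9 and 10 were higher and 1, 1 and 0 lower. Over all genes 4.06, 16.1 and 17.9% were higher and 3.39, 23.5 and 21.4% lower. The A20 gene Tnfaip3 was 3.85 higher at 1 h (SE 0.34), Nfkbia, which holds NF-kB in the cytoplasm, 3.24 and the MAP kinase phosphatase Dusp1 2.77. At that time the inhibitors Irak3 and Sigirr differed by 0.46 and 0.00, neither called.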

How the data were processed

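Messenger RNA of 12 samples was measured on 2-colour Agilent arrays. The scanner files were deposited as written by Agilent Feature Extraction 10.7.3.1 (protocol GE2_107_Sep09), per the file headers. Per the file headers, the intensity values are medians over the pixels of each of 45018 spots and of its surroundings in both channels, deposited without normalization. The deposited value table holds log2 ratios made by the authors with limma, per the submitters' processing notes; its steps are not stated in labels or headers. Set against the scanner files, its values ran as log2 of Cy5 over Cy3, with r of 0.9992 to 0.9998 on every array and column medians near 0 (0.0051 to 0.00983).

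In R 4.3.3 with limma 3.58.1 (labels read with jsonlite 2.0.0), intensities were corrected by normexp (offset 50), with local backgrounds marked as outliers replaced by the array median, and normalised within arrays by loess (span 0.3), 1639 control spots at weight 0. Between 137 and 234 outlier spots per array were left out, and spots of a probe averaged. Of 41174 probes, 22951 had a symbol through their RefSeq accession. Probes well above background on all 3 arrays of at least 1 group were kept (21766, of which 15120 with a symbol), and per gene the probe of highest mean intensity used, giving 11108 genes. No member probe was saturated. Group means were estimated over the 12 arrays in 1 linear model (8 residual degrees of freedom) with eBayes, two-sided tests and Benjamini-Hochberg adjustment over all genes. The fit was tested on simulated data. The number of arrays limits the precision.

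Among 18 pairs of arrays with the same donor letter, deviations from group means had a median correlation of 0.11 (range -0.21 to 0.58), 9 of them over 0.1, and -0.01 over 36 pairs with different letters. Pairing by donor rests on the letters, which the labels tag as donors. Where no separate animals are stated, p-values measure only the spread between these samples.

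The members and gene lists were chosen with earlier results of these data known. All members are named; of each list up to 3 called genes with the largest differences; and the 2 genes most correlated with each member called in the F test, which for Irak2 are not reported here. Alternatives were donor or slide as a block, other background corrections and normalisations, other probe filters, the authors' values, the mean over probes, a 2-fold threshold, and leaving out each array. Promoters come from RefSeq. No sequence is shown for the other members.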

Additional observations from a re-analysis of the deposited data

How the results depend on the processing

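Over the 10 genes and 6 comparisons, the alternatives other than leaving out arrays gave 594 differences. Of 190 that belong to a call, 170 kept it with its direction, 20 missed the threshold and 0 turned sign, and 6 uncalled differences became called. These counts include alternatives that leave a gene's ratios as they are, such as the mean over probes for genes with a single probe. Leaving out arrays gave 228 values of calls, of which 222 were kept. Among uncalled differences 32 and 29 turned sign. With slide as a block 0 of the 10 genes were called at 1 h and 3 at 24 h. With backgrounds as deposited it was 0, 2 and 3 at 1, 6 and 24 h. Median centring gave 0 at 1 h and 3 at 24 h against unstimulated cells, 1 from 6 h to 24 h and 0 from 1 h to 24 h. Asking for at least 2-fold gave 0, 2 and 3 at 1, 6 and 24 h, 1 from 6 h to 24 h and 0 from 1 h to 24 h. The cause of these changes was not tested, other than the stricter rule of the last. Leaving out arrays gave 0 to 2 members at 1 h, 4 to 5 at 6 h, 4 to 5 at 24 h, 3 to 3 from 1 h to 6 h, 3 to 4 from 6 h to 24 h, 3 to 4 from 1 h to 24 h and 5 to 6 in the F test. With donor as a replicate block, or the authors' values, all calls of members were kept, and the block added Traf6 at 6 h (adjusted p = 0.015) and from 1 h to 24 h. Over all genes, 828, 4397 and 4369 were called at 1, 6 and 24 h, against 224, 1951 and 1757 with slide as a block, 225, 2015 and 2332 with median centring and, at 1 and 6 h, 243 and 2438 with backgrounds as deposited. Between LPS times (3123 from 1 h to 6 h, 2041 from 6 h to 24 h, 3197 from 1 h to 24 h) median centring gave 1454, 925 and 1112, backgrounds as deposited 1379, 798 and 1818, and the slide block 867 from 6 h to 24 h. The F test called 5741 genes, against 3141 with the slide block, 3439 with backgrounds as deposited and 2794 with median centring. Leaving out arrays gave 338 to 1047 at 1 h, lowest without unstimulated A (338), unstimulated B (357), 1 h B (402) and 1 h A (530). It gave 1078 to 2307 from 6 h to 24 h, lowest without 6 h A (1078), 24 h C (1272) and 6 h B (1290). Higher calls were 42.6, 52.5 and 45% between the LPS times in that order, and 83.1, 10.3 and 54% with median centring. For genes named from the pathway lists, 455 of 459 values kept call and direction, and the other 4 were of Il1r2 (slide block, and backgrounds as deposited, -2.17 with adjusted p = 0.057), Il18rap and Map3k8; these alternatives were chosen after seeing the data. Signal over background limits Ticam2 and the dimmer Irak3 probes.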
